A study of Anopheles merus and Anopheles coluzzii with 36 samples.

Results

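Transcript levels of 7 circadian clock genes were followed in whole larvae of Anopheles merus and Anopheles coluzzii across 6 water salinities. The members were listed by identifier, and all 7 were present among the 10905 genes of the deposited table: per (AGAP001856), tim (AGAP008288), Clk (AGAP005711), cyc (AGAP005655), cry1 (AGAP001958), cry2 (AGAP004261) and Pdp1 (AGAP006376). The deposited table holds identifiers alone, and the gene names are those given with the member list. An. merus is a euryhaline malaria vector, with larvae that live in fresh and in salt water, and An. coluzzii is a closely related stenohaline species, which develops in fresh water. Larvae of both were reared in fresh water to 18 h after hatching and were then exposed for 6 h to 1 of 6 salinities, from 0 (fresh water) to 50% of seawater in steps of 10%. Libraries were made from poly(A) RNA, each of a pool of 35 to 50 whole larvae, with 3 libraries in each of the 12 groups of species and salinity, 36 in all. The groups differed in no other stated respect, and no strain or genotype is named in the labels. The 0% groups also spent the 6 h in their test water.

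The circadian clock of insects is a feedback loop of transcription, worked out mainly in Drosophila melanogaster. CLK and CYC, the proteins of Clk and cyc, together switch on per and tim, and the PER and TIM proteins return to the nucleus and repress CLK and CYC. Mosquitoes carry a pair of cryptochromes, a light receptor of the Drosophila type (cry1) and a repressor of the vertebrate type (cry2), and Pdp1 encodes a transcription factor that activates Clk in an interlocked loop in Drosophila. Clock transcripts rise and fall over the day. The labels give neither the hour of collection nor the light schedule, and each pool is a single time point, so a shifted rhythm and a changed daily level cannot be told apart. In whole larvae, fewer cells of a type and less RNA per cell cannot be told apart either, and markers of larval tissues could not be read from a table without gene names.

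Values are TMM-scaled CPM, read counts scaled to a common library size, which sets each change relative to most other genes, and levels are compared within a gene only, since no gene lengths were at hand. The An. merus libraries held 9174563 to 24092192 reads, and the An. coluzzii libraries 15369828 to 24835904. Behind the single values stood 14 to 308 reads for Clk, 21 to 149 for per, 25 to 90 for cry2, 67 to 659 for Pdp1, 75 to 327 for cyc, 117 to 995 for tim and 1025 to 4332 for cry1. Pools at 0% stood further apart on average than others in each species: the mean absolute log2 gap between replicates over genes was 0.347 in An. merus at 0% and 0.193 to 0.243 at the other salinities, and in An. coluzzii 0.269 at 0% and 0.146 to 0.225 elsewhere. The pairs at 0% were unequal. In An. merus the gap was 0.399 for A and B, 0.394 for A and C, and 0.249 for B and C. In An. coluzzii it was 0.343 for A and D, 0.225 for A and B, and 0.24 for B and D. Replicate A at 0% of An. merus held the fewest reads of all libraries (9174563), and it was also the lowest of the 18 An. merus libraries for tim, Clk and Pdp1. The part of its depth in the results was not tested, and calls of the main fit that turn on it are given with and without it. Calls gained only without it are not listed, so the genes behind an unchanged count can differ. Whether the pools were of separate cultures is not stated in the labels, and p-values measure only the spread between pools, which may be technical.

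In broad terms, the clock genes other than cry1 were higher in salt water where they changed, and cry1 was lower. At 50% against 0%, 6 of the 7 passed the test in An. merus (limma adjusted p under 0.05; 5 higher and 1 lower), where 69.6% of all genes did. In An. coluzzii 7 of 7 passed (6 higher and 1 lower), where 68% of all genes did. The shares of all genes called higher were 31.9% and 31.7%, and those called lower 37.7% and 36.3%. That balance depends on the scaling: in An. merus 3482 genes were called higher and 4112 lower with TMM, and 2800 and 4685 with library totals. In An. coluzzii they were 3454 and 3963 with TMM, and 2189 and 5456 with library totals. At 50% the 7 genes had a median log2 change of 0.71 (An. merus) and 1.0 (An. coluzzii), beside -0.06 over all genes in each species. With 7 members and most genes called at 50%, nothing particular to the clock genes is read from these counts.

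**Figure D1:**
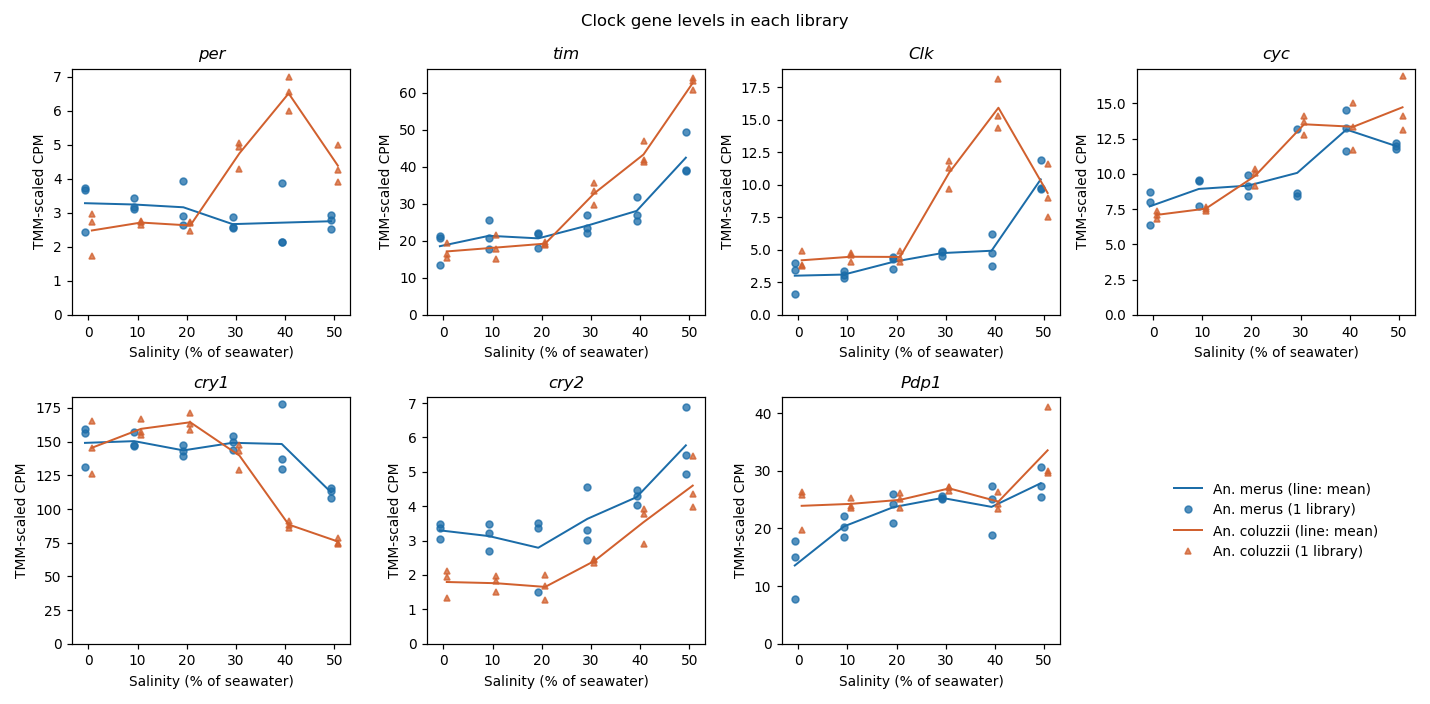
Level of each clock gene (TMM-scaled CPM, linear axis from 0) against salinity (% of seawater), with 1 symbol per library (n = 3 per group) and a line through the group means, circles for An. merus and triangles for An. coluzzii (drawn side by side at each salinity). In An. coluzzii per and Clk peak at 40% with means of 6.51 and 15.9 CPM, tim climbs to 62.6 CPM at 50%, and cry1 drops to 75.9 CPM; in An. merus per stays between means of 2.67 and 3.28 CPM.

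The activator Clk had its steepest course at different salinities in the species. In An. merus its 3 libraries read 1.62, 3.99 and 3.42 CPM at 0% (replicates A, B and C), 4.79, 3.78 and 6.22 CPM at 40%, and 9.72, 11.9 and 9.65 CPM at 50%. All 3 libraries at 50% lay above every An. merus library of a lower salinity. The rise against 0% was 3.25-fold at 50% (log2 change 1.70 ± 0.19 SE, limma adjusted p = 1.0e-08; 1.37 without replicate A at 0%). From 40 to 50% alone it was 1.03 ± 0.19 (log2 scale, SE; limma adjusted p = 9.2e-05).

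At 30 and 40% the calls for Clk in An. merus rested on single libraries. The log2 changes were 0.65 ± 0.19 at 30% (SE, limma adjusted p = 0.018) and 0.67 ± 0.19 at 40% (SE, limma adjusted p = 0.0064). Without replicate A at 0%, whose 1.62 CPM came from 14 reads, they were 0.32 and 0.35 (limma adjusted p = 0.28 and 0.13). The call at 30% was also lost without replicate A at 30% (0.63, limma adjusted p = 0.059) and with the species fitted alone (limma adjusted p = 0.068), and that at 40% without replicate C at 40% (0.51, limma adjusted p = 0.063).

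In An. coluzzii Clk rose earlier and then declined. Its libraries read 4.94, 3.86 and 3.79 CPM at 0% (replicates A, B and D), 4.08, 4.88 and 4.41 CPM at 20%, 9.71, 11.3 and 11.8 CPM at 30%, 18.1, 15.3 and 14.4 CPM at 40% (replicates B, C and D), and 7.56, 11.6 and 8.96 CPM at 50%. The libraries at 0, 10 and 20% overlapped, those at 30 and 50% overlapped above them, and those at 40% stood above all others. The change from 20 to 30% was 1.21 ± 0.19 (log2 scale, SE; limma adjusted p = 4.9e-05), and the later fall from 40 to 50% was -0.75 ± 0.19 (SE, limma adjusted p = 0.0025). Against 0%, Clk was 2.44-fold higher at 30%, 3.50-fold at 40% and 2.09-fold at 50% (limma adjusted p = 3.3e-06, 4.4e-09 and 2.3e-05).

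For the partner of Clk, cyc, the rise was smaller and showed no decline in An. coluzzii. There its mean at 0, 10 and 20% was 7.08 ± 0.273, 7.53 ± 0.141 and 9.84 ± 0.619 CPM, and at 30, 40 and 50% it was 13.5 ± 0.676, 13.3 ± 1.64 and 14.7 ± 1.99 CPM (SD, n = 3). The libraries of 0, 10 and 20% did not overlap with each other, and those of 30, 40 and 50% did. The log2 change against 0% was 0.89, 0.86 and 1.0 at 30, 40 and 50% (SE 0.13 each; limma adjusted p = 4.2e-06, 2.8e-06 and 2.6e-07).

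At 20%, cyc was the 1 clock gene called in An. coluzzii, where 15.3% of all genes were. Its change was 0.45 ± 0.13 (log2 scale, SE; limma adjusted p = 0.023). The call was lost without replicate A or B at 0% or replicate A or C at 20% (0.41 to 0.44, limma adjusted p = 0.051 to 0.11). From 20 to 30% cyc rose by 0.44 ± 0.13 (SE, limma adjusted p = 0.019), a call lost without replicate B at 20% or A at 30% (limma adjusted p = 0.077 and 0.067) and with library totals as the scaling (limma adjusted p = 0.05).

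Mean levels of cyc in An. merus at 0, 30, 40 and 50% were 7.69 ± 1.21, 10.1 ± 2.68, 13.1 ± 1.43 and 11.97 ± 0.195 CPM (SD, n = 3). At 40 and 50% all libraries lay above those at 0%, while those at 10, 20 and 30% overlapped with 0%. The log2 change was 0.74 ± 0.13 at 40% (SE, limma adjusted p = 8.0e-05) and 0.62 ± 0.13 at 50% (SE, limma adjusted p = 0.00019).

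Among the genes of the repressor arm, tim changed most in An. coluzzii. Its libraries read 19.5, 16.4 and 15.4 CPM at 0%, 18.8, 19.8 and 19.1 CPM at 20%, 35.5, 33.3 and 29.6 CPM at 30%, 41.7, 47.1 and 41.1 CPM at 40%, and 64.0, 63.1 and 60.7 CPM at 50%. From 30% up each group lay wholly above the one of the next lower salinity. The rise against 0% was 1.89-fold at 30%, 2.49-fold at 40% and 3.60-fold at 50% (log2 change 1.85 ± 0.15 SE at 50%; limma adjusted p = 1.1e-05, 1.5e-08 and 2.2e-11). At 50% this change exceeded that of 98.5% of all genes, and unlike Clk the gene was still higher at 50% than at 40% (log2 change 0.53 ± 0.15 SE, limma adjusted p = 0.0054). The step from 30 to 40% was less firm (0.40 ± 0.15 SE, limma adjusted p = 0.036), with the call lost in 5 of 6 fits that left out 1 of its libraries, all but replicate A at 30% (0.33 to 0.43 in those 5, limma adjusted p = 0.052 to 0.13). It was also lost with library totals as the scaling (0.26, limma adjusted p = 0.26) and with quantile normalization (0.37, limma adjusted p = 0.059).

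In An. merus tim read 13.6, 21.2 and 20.8 CPM at 0%, 17.7, 25.6 and 20.7 CPM at 10%, 22.0, 26.9 and 23.4 CPM at 30%, 27.0, 25.5 and 31.7 CPM at 40%, and 39.2, 49.3 and 38.8 CPM at 50%. The groups from 0 to 40% overlapped with their neighbours in level, and the libraries at 50% lay above all of them. The rise was 1.52-fold at 40% (log2 change 0.61 ± 0.15 SE, limma adjusted p = 0.0020; 0.40 without replicate A at 0%, limma adjusted p = 0.04) and 2.29-fold at 50% (1.19 ± 0.15 SE, limma adjusted p = 6.8e-08). From 40 to 50% it was 0.59 ± 0.15 (SE, limma adjusted p = 0.0022), a call lost with library totals as the scaling (0.42, limma adjusted p = 0.063).

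The courses of per, which in Drosophila pairs with tim in repression, differed between the species. In An. coluzzii its libraries read 2.97, 2.73 and 1.74 CPM at 0%, 2.46, 2.70 and 2.72 CPM at 20%, 4.92, 5.04 and 4.28 CPM at 30%, 6.00, 6.55 and 6.97 CPM at 40%, and 3.91, 4.25 and 4.99 CPM at 50%. The groups from 0 to 20% overlapped, those at 30 and 50% overlapped above them, and 40% stood highest, as for Clk. Against 0%, per was 1.79-fold higher at 30%, 2.39-fold at 40% and 1.66-fold at 50% (limma adjusted p = 0.00019, 3.4e-07 and 0.00048). From 40 to 50% it fell by 0.52 ± 0.17 (log2 scale, SE; limma adjusted p = 0.015), a call lost without replicate D at 40% or replicate A at 50% (limma adjusted p = 0.053 and 0.061).

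No salinity moved per past the threshold in An. merus. Its libraries read 2.44, 3.74 and 3.66 CPM at 0%, 2.54, 2.58 and 2.88 CPM at 30%, 2.13, 2.13 and 3.86 CPM at 40%, and 2.94, 2.77 and 2.53 CPM at 50%, and neighbouring groups overlapped throughout the order of levels. The moderated F test over the 6 salinities gave a limma adjusted p of 0.47, and the log2 change at 50% was -0.20 ± 0.17 (SE, limma adjusted p = 0.30; -0.37 to -0.11 with 1 library left out). Of the 7 genes it was the 1 not called over all salinities in An. merus, where 65.3% of all genes were called. These levels rested on 21 to 76 reads per library, so small changes were not detectable.

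Transcripts of cry2, the repressor-type cryptochrome, were higher at the upper end of the series in both species. Its libraries in An. merus read 3.37, 3.49 and 3.04 CPM at 0% and 4.95, 5.48 and 6.88 CPM at 50%, a 1.64-fold rise (log2 change 0.71 ± 0.20 SE, limma adjusted p = 0.0023). In An. coluzzii they read 2.13, 1.93 and 1.33 CPM at 0%, 2.90, 3.78 and 3.93 CPM at 40%, and 4.37, 5.45 and 3.98 CPM at 50%. That species' 3 groups from 30 to 50% each lay above the groups of lower salinity without overlap. The change passed the test at 40% (log2 change 0.82 ± 0.20 SE, limma adjusted p = 0.00068) and at 50% (1.16 ± 0.20 SE, limma adjusted p = 1.0e-05), a 2.23-fold rise.

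Of the clock genes called at 50% against 0%, cry1, the light-receptor cryptochrome, was the 1 called lower in each species. In An. coluzzii it read 126, 145 and 165 CPM at 0%, 172, 159 and 163 CPM at 20%, 148, 129 and 143 CPM at 30%, 91.3, 88.0 and 86.1 CPM at 40%, and 74.9, 78.6 and 74.1 CPM at 50%. The libraries at 0% overlapped with those at 10, 20 and 30%, those at 30% lay wholly below those at 10 and 20%, 40% lay below all of these and 50% below 40%. Its level fell by 0.71 ± 0.09 at 40% and by 0.93 ± 0.09 at 50% (log2 scale, SE; limma adjusted p = 2.6e-07 and 2.0e-09), which is 1.90-fold lower at 50%. From 30 to 40% alone the level decreased by 0.65 ± 0.09 (SE, limma adjusted p = 3.3e-06).

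In An. merus cry1 held its level to 40% and was lower at 50%. The 3 libraries read 160, 131 and 156 CPM at 0%, 137, 178 and 130 CPM at 40%, and 114, 108 and 115 CPM at 50%, and those at 50% lay below every other An. merus library. The log2 change at 50% was -0.40 ± 0.09 (SE, limma adjusted p = 0.00049), which is 1.32-fold lower. From 40 to 50% cry1 fell by 0.38 ± 0.09 (SE, limma adjusted p = 0.0016), or by 0.25 without replicate B at 40% (limma adjusted p = 0.031).

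Pdp1, the activator of Clk in Drosophila, was called from a lower salinity in An. merus than the other clock genes. Its libraries there read 7.77, 17.9 and 15.0 CPM at 0%, 20.3, 18.6 and 22.2 CPM at 10%, 25.9, 20.9 and 24.2 CPM at 20%, 25.6, 25.0 and 25.2 CPM at 30%, and 27.3, 25.5 and 30.7 CPM at 50%. Each library kept in salt water lay above all 3 at 0%, and neighbouring groups in the order of levels from 10 to 50% overlapped. At 10% the change was not past the threshold (limma adjusted p = 0.091), and 0 of the 7 clock genes were called there (0.798% of all genes; 1 of the 7 at an unadjusted p under 0.05, 0 by edgeR and 0 by DESeq2). Without replicate B or C at 0%, Pdp1 was called at 10% as well.

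At 20% Pdp1 was the 1 clock gene called in An. merus, where 11.8% of all genes were. The log2 change was 0.85 ± 0.18 at 20%, 0.95 ± 0.18 at 30%, 0.85 ± 0.18 at 40% and 1.08 ± 0.18 at 50% (SE; limma adjusted p = 0.0031, 0.00047, 0.00048 and 5.9e-06). Without replicate A at 0% these changes were 0.51, 0.61, 0.50 and 0.74, and the call at 20% was lost (limma adjusted p = 0.053).

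In An. coluzzii Pdp1 ranged from 19.7 to 27.1 CPM in all libraries from 0 to 40%. At 50% the libraries read 30.0, 41.0 and 29.6 CPM. The rise at 50% was 1.39-fold (log2 change 0.47 ± 0.18 SE, limma adjusted p = 0.022). That call was lost without replicate A at 0% (0.34, limma adjusted p = 0.13) or replicate B at 50% (0.32, limma adjusted p = 0.15) and with library totals as the scaling (0.18, limma adjusted p = 0.46). Pdp1 was also the 1 clock gene not called by the F test over the 6 salinities in An. coluzzii (limma adjusted p = 0.13), where 84.8% of all genes were called. With An. coluzzii fitted alone it was called (limma adjusted p = 0.014), as it was by DESeq2 (adjusted p = 0.022).

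**Figure D2:**
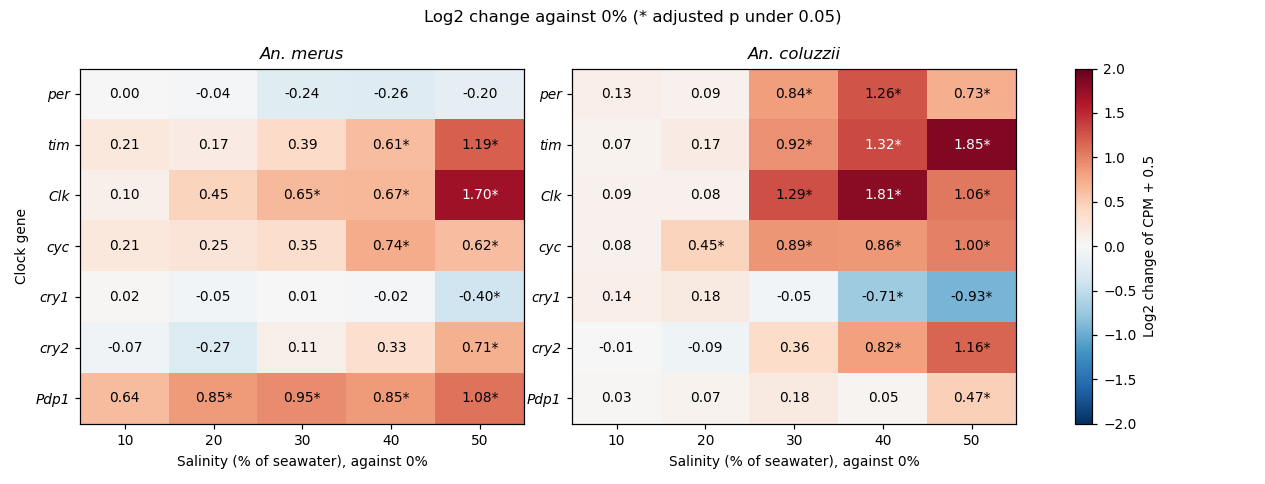
Log2 change of CPM + 0.5 against 0% for each clock gene (rows) at each salinity (columns, % of seawater), An. merus at left and An. coluzzii at right, with n = 3 libraries per group and an asterisk where the limma adjusted p is under 0.05. Most changes in An. merus are largest at 50% (Clk 1.70, tim 1.19), while in An. coluzzii per and Clk are largest at 40% (1.26 and 1.81) and cry1 falls to -0.71 at 40% and -0.93 at 50%, after -0.05 at 30%.

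Counted over the series, the calls rose in number with salinity in both species. So did the calls over all genes, and nothing particular to the clock genes is read from the counts. In An. merus the clock genes called numbered 0 of 7 at 10%, 1 at 20%, 2 at 30% (Clk and Pdp1; 19.4% of all genes), 4 at 40% (tim, Clk, cyc and Pdp1; 39.3%) and 6 at 50%. In An. coluzzii they were 0 at 10% (0.055% of all genes; 0 at an unadjusted p under 0.05 and 0 by edgeR or DESeq2), 1 at 20%, 4 at 30% (per, tim, Clk and cyc; 50.2%), 6 at 40% (all but Pdp1; 65.6%) and 7 at 50%. The comparisons within a species share their 0% libraries. Clock genes whose 3 libraries lay wholly above or below those at 0% numbered 1, 1, 3, 4 and 6 in An. merus from 10 to 50% (10.6, 21.9, 29.6, 40.7 and 67.7% of all genes) and 1, 1, 6, 6 and 7 in An. coluzzii (10.6, 33.8, 56, 68.8 and 68.1%). The limma calls, and not these counts of groups apart, were repeated with 1 library left out. In An. merus the calls numbered 0 at 20% and 1 at 30% without replicate A at 0%. They numbered 1 at 10% without replicate B or C at 0%, 2 at 20% without replicate B at 0%, and 1 at 30% without replicate A at 30%. In An. coluzzii the calls numbered 0 at 20% without replicate A or B at 0% or replicate A or C at 20%. Calls were also counted at the steps between neighbouring salinities, beside the share of all genes. With 7 members, these step counts alone are not read as placing the changes of the clock genes. Calls in An. merus numbered 3 of 7 from 40 to 50% (tim, Clk and cry1; 44.8% of all genes) and 0 at the steps below it (0% of all genes from 10 to 20%, 0.00917% from 20 to 30% and 1.81% from 30 to 40%). At those 3 steps, 0, 0 and 1 clock genes had an unadjusted p under 0.05, and edgeR and DESeq2 called 0 of the 7. Without replicate A at 30%, 1 gene (cyc) was called from 30 to 40%.

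In An. coluzzii 0 of 7 were called from 10 to 20% (1.05% of all genes; 1 at an unadjusted p under 0.05 and 0 by edgeR or DESeq2), 4 from 20 to 30% (per, tim, Clk and cyc; 22.1% of all genes), 3 from 30 to 40% (tim, Clk and cry1; 40.3%) and 3 from 40 to 50% (per, tim and Clk; 43.3%). The step of Clk from 30 to 40% was 0.52 ± 0.19 (log2 scale, SE; limma adjusted p = 0.032). It lost its call in 4 of 6 fits, those without replicate A or B at 30% or replicate B or C at 40% (0.43 to 0.55, limma adjusted p = 0.055 to 0.12), and with library totals (0.39, limma adjusted p = 0.16). Only cry1 was called from 30 to 40% without replicate B at 30% or replicate C at 40%.

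A difference between the species' responses was tested as the change of An. merus against its own 0% minus that of An. coluzzii, the interaction term of the model. Over all salinities 6 of the 7 genes differed in response (moderated F test, limma adjusted p under 0.05; 71.9% of all genes), with limma adjusted p = 4.3e-06 for per, 1.4e-06 for cry1, 1.4e-05 for Clk and 0.00090 for tim. The call of tim was lost with library totals as the scaling (limma adjusted p = 0.083). For cyc (limma adjusted p = 0.028) it was lost in 5 of 36 fits that left out 1 library, without An. merus 10% A or B, An. merus 30% B or C, or An. coluzzii 30% A (limma adjusted p = 0.054 to 0.073), and with library totals (limma adjusted p = 0.05). For Pdp1 (limma adjusted p = 0.047) it was lost in 30 of 36, with up to 0.22 without An. merus replicate A at 0%, and by edgeR (adjusted p = 0.069). The response of cry2 was not shown to differ (limma adjusted p = 0.46).

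At each of 30, 40 and 50% the difference was largest for per. Its response was lower in An. merus by 1.08 ± 0.24 at 30%, 1.52 ± 0.24 at 40% and 0.93 ± 0.24 at 50% (log2 scale, SE; limma adjusted p = 0.0025, 1.5e-05 and 0.0019). These 3 calls held in each fit that left out 1 library. The response of cry1 was less negative in An. merus by 0.69 ± 0.13 at 40% and 0.53 ± 0.13 at 50% (SE; limma adjusted p = 0.00016 and 0.0016). Its log2 changes at 40 and 50% were -0.02 and -0.40 in An. merus, and -0.71 and -0.93 in An. coluzzii. For tim the response was lower in An. merus by 0.71 ± 0.21 at 40% and 0.65 ± 0.21 at 50% (SE; limma adjusted p = 0.0078 and 0.010). Both calls were lost with library totals as the scaling (limma adjusted p = 0.23 and 0.11).

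For Clk the sign of the difference depended on salinity. Its response was lower in An. merus by 1.13 ± 0.27 at 40% (SE, limma adjusted p = 0.0014), when its level was 4.93 ± 1.22 CPM there and 15.9 ± 1.94 CPM in An. coluzzii (SD, n = 3). At 50% it was higher in An. merus by 0.64 ± 0.27 (SE, limma adjusted p = 0.047). This second call was weak: edgeR and DESeq2 did not make it (adjusted p = 0.09 and 0.08), nor did a pseudocount of 2 or quantile normalization (limma adjusted p = 0.053 and 0.079). It was lost in 6 of 12 fits that left out 1 library. These were An. merus 0% A (0.31, limma adjusted p = 0.25) and An. merus 50% A or B, An. coluzzii 0% A, and An. coluzzii 50% A or C (0.50 to 0.69, limma adjusted p = 0.052 to 0.14).

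Pdp1 had a higher response in An. merus by 0.77 ± 0.26 at 30%, 0.79 ± 0.26 at 40% and 0.61 ± 0.26 at 50% (SE; limma adjusted p = 0.033, 0.013 and 0.044). Without An. merus replicate A at 0% it was 0.43, 0.45 and 0.27, and 0 of these 3 calls remained (limma adjusted p = 0.12, 0.058 and 0.25). The call at 30% was also lost without any 1 of An. merus 30% A, B or C, An. coluzzii 0% B or D, and An. coluzzii 30% A or C (limma adjusted p = 0.054 to 0.077). That at 50% was also lost without An. merus 50% A or C, An. coluzzii 0% B or D, or An. coluzzii 50% A or C (limma adjusted p = 0.061 to 0.10), and was not made by edgeR or DESeq2 (adjusted p = 0.075 and 0.055). The response of cyc was lower in An. merus by 0.54 ± 0.19 at 30% (SE, limma adjusted p = 0.048), and the call was lost in 10 of 12 fits, all but those without An. merus 0% B or An. merus 30% A (limma adjusted p = 0.052 to 0.15). It was also lost with library totals (-0.35, limma adjusted p = 0.17), and edgeR and DESeq2 did not make it (adjusted p = 0.063 and 0.08).

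Counts of clock genes with a different response were 0 at 10% and 20% (0.0642% and 0.55% of all genes), 3 at 30% (per, cyc and Pdp1; 18.9%), 5 at 40% (per, tim, Clk, cry1 and Pdp1; 44.2%) and the same 5 at 50% (54.9%). At 10 and 20%, 1 and 1 of the 7 had an unadjusted p under 0.05, and edgeR and DESeq2 called 0. Without An. merus replicate B at 0%, Pdp1 was called at 20%. At 30% the count was 1 (per) without any 1 of An. merus 30% B or C, An. coluzzii 0% B or D, or An. coluzzii 30% A or C. Without An. merus 0% A, cyc and Pdp1 lost their calls at 30%, and calls gained in that fit are not listed. At 50% it was 3 (per, tim and cry1) with edgeR, with DESeq2 and without any 1 of An. merus 0% A, An. merus 50% A, or An. coluzzii 50% A or C.

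**Figure D3:**
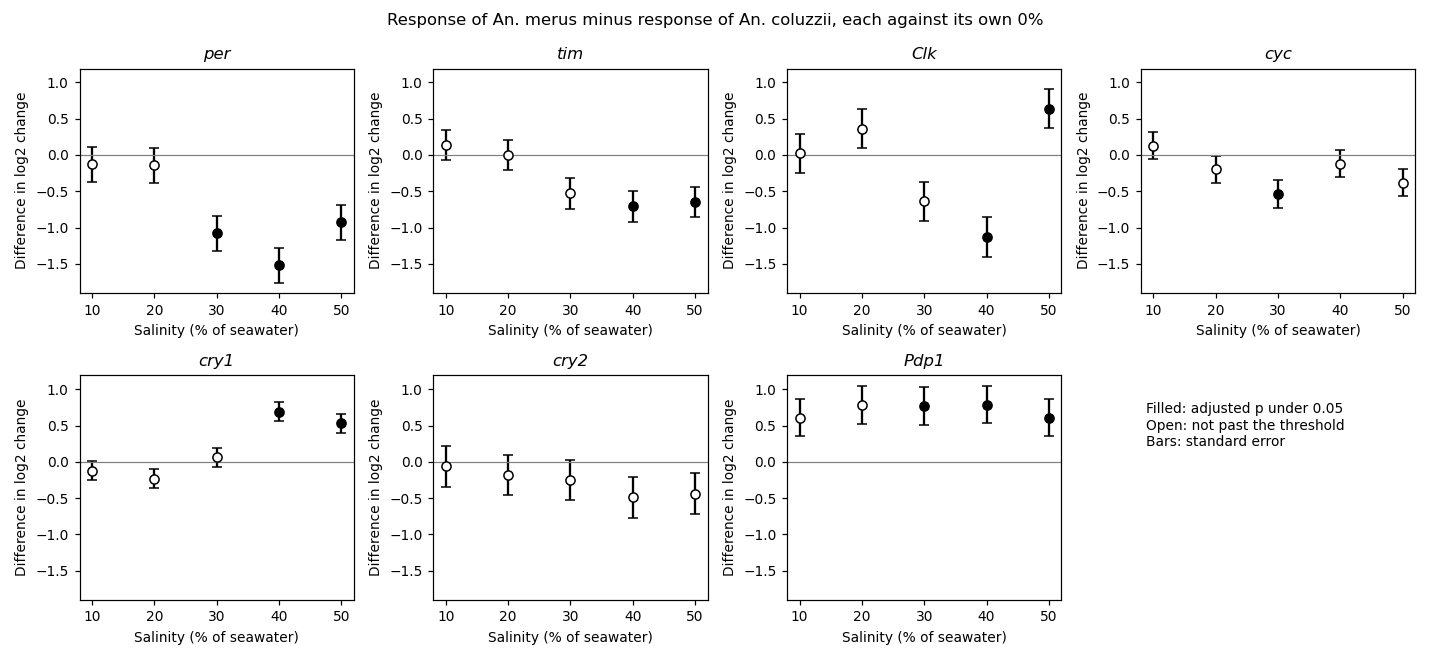
Difference between the species in the response of each clock gene (log2 change of An. merus against 0% minus that of An. coluzzii), by salinity (% of seawater); bars are standard errors from the model of 36 libraries, and filled circles have a limma adjusted p under 0.05. The values of per are negative with the lowest at 40% (-1.52), those of cry1 are positive at 40 and 50% (0.69 and 0.53), and those of Clk turn from -1.13 at 40% to 0.64 at 50%.

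The species were also compared at each salinity, which takes in their difference in fresh water. At 0%, 3 of the 7 genes differed, where 43.5% of all genes did. The level of cry2 in An. merus, 3.30 ± 0.234 CPM, exceeded that in An. coluzzii, 1.80 ± 0.415 CPM (SD, n = 3), without overlap. On the log2 scale the difference was 0.74 ± 0.20 (SE, limma adjusted p = 0.0033). Pdp1 was lower in An. merus, with means of 13.6 ± 5.22 and 23.9 ± 3.68 CPM (SD, n = 3). The difference was -0.86 ± 0.18 (log2 scale, SE; limma adjusted p = 0.00030; -0.52 without replicate A, limma adjusted p = 0.0055). Clk was lower as well (-0.48 ± 0.19 SE, limma adjusted p = 0.044), a call that edgeR and DESeq2 did not make (adjusted p = 0.11 each) and that a pseudocount of 2 or quantile normalization lost (limma adjusted p = 0.063 and 0.17). It was also lost without An. merus replicate A (-0.15, limma adjusted p = 0.52) or any 1 of the 3 An. coluzzii libraries (-0.54 to -0.37, limma adjusted p = 0.05 to 0.16). For per, tim, cyc and cry1 the levels at 0% were 3.28 and 2.48, 18.5 and 17.1, 7.69 and 7.08, and 149 and 145 CPM in An. merus and An. coluzzii.

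The higher level of cry2 in An. merus was also called at 10% (log2 difference 0.68 ± 0.20 SE, limma adjusted p = 0.0073), 20% (0.56 ± 0.20 SE, limma adjusted p = 0.023) and 30% (0.49 ± 0.20 SE, limma adjusted p = 0.036), but not at 40 or 50%. At 20% it was lost without An. merus 20% A or B or An. coluzzii 20% A (0.39 to 0.43, limma adjusted p = 0.13 to 0.16) and was 0.88 without An. merus 20% C. At 30% it was lost without An. merus 30% A or any 1 of the 3 An. coluzzii libraries (0.33 to 0.50, limma adjusted p = 0.064 to 0.20) and with quantile normalization (0.46, limma adjusted p = 0.051). It was the 1 clock gene called at 10 and 20% (36.7 and 42.9% of all genes).

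At 40% An. merus had lower levels of Clk (-1.62 ± 0.19), per (-1.17 ± 0.17) and tim (-0.62 ± 0.15) and a higher level of cry1 (0.73 ± 0.09) (log2 scale, SE; limma adjusted p = 2.5e-08, 9.1e-07, 0.00065 and 1.2e-07), 4 of 7 genes where 67.3% of all genes differed. The difference of tim lost its call with library totals as the scaling (-0.36, limma adjusted p = 0.083). For Clk at 50% the libraries overlapped, with a mean of 10.4 ± 1.28 CPM for An. merus and of 9.38 ± 2.05 CPM for An. coluzzii (SD, n = 3). There per, tim and cry1 differed (-0.58 ± 0.17, -0.56 ± 0.15 and 0.56 ± 0.09 SE; limma adjusted p = 0.0038, 0.0016 and 6.6e-06), 3 of 7 where 68.2% of all genes did. At 30%, 5 genes were called where 57.5% of all genes were, with cry2 higher and per, tim, Clk and cyc lower in An. merus. The difference of Clk there was -1.12 ± 0.19 and that of per -0.73 ± 0.17 (SE; limma adjusted p = 1.4e-05 and 0.00065). The calls of tim (-0.44 ± 0.15 SE, limma adjusted p = 0.014) and cyc (-0.43 ± 0.13 SE, limma adjusted p = 0.0070) at 30% were less firm. That of tim was lost without replicate A at 30% of either species (limma adjusted p = 0.062 and 0.061) and with library totals (limma adjusted p = 0.14), and that of cyc without An. merus 30% B or C (limma adjusted p = 0.052 and 0.063). Genes without a read numbered 71 to 138 in each An. merus library and 23 to 41 in each An. coluzzii library, and the cause was not tested. Alignment rates of the species' reads were not at hand, and unequal alignment and unequal expression cannot be told apart. A constant offset of that kind cancels in the interaction.

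The likeness of the salinity courses was described by Pearson's r over the group means of log2(CPM + 0.5), which share the libraries of each group. In An. coluzzii per and Clk had an r of 0.998 over the 6 salinity means, and tim and cry2 one of 0.981. The r of cry1 with cry2 was -0.980 there, and with tim -0.930. In An. merus tim and Clk had an r of 0.967, and tim and cry2 one of 0.925. The r of per with tim, Clk, cyc, cry2 and Pdp1 in An. merus lay between -0.850 and -0.669, over means of per that did not differ by the F test. Over all 12 group means, each centred on its own species, the closest pair was tim and cry2 with an r of 0.963. By that measure tim ranked 30 among the 10904 other genes for cry2, and cry2 ranked 214 for tim, so many genes of the table followed courses closer to that of tim than cry2 did.

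Among 8753 genes that were no members and had a mean of at least 5 CPM, AGAP001813 was most like tim (r = 0.997), AGAP003705 most like cry1 (0.997), AGAP007473 most like cry2 (0.985), AGAP007181 most like Clk (0.983), AGAP001482 most like cyc (0.980), AGAP007118 most like Pdp1 (0.975) and AGAP007334 most like per (0.959), each over the 12 centred group means.

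**Figure D4:**
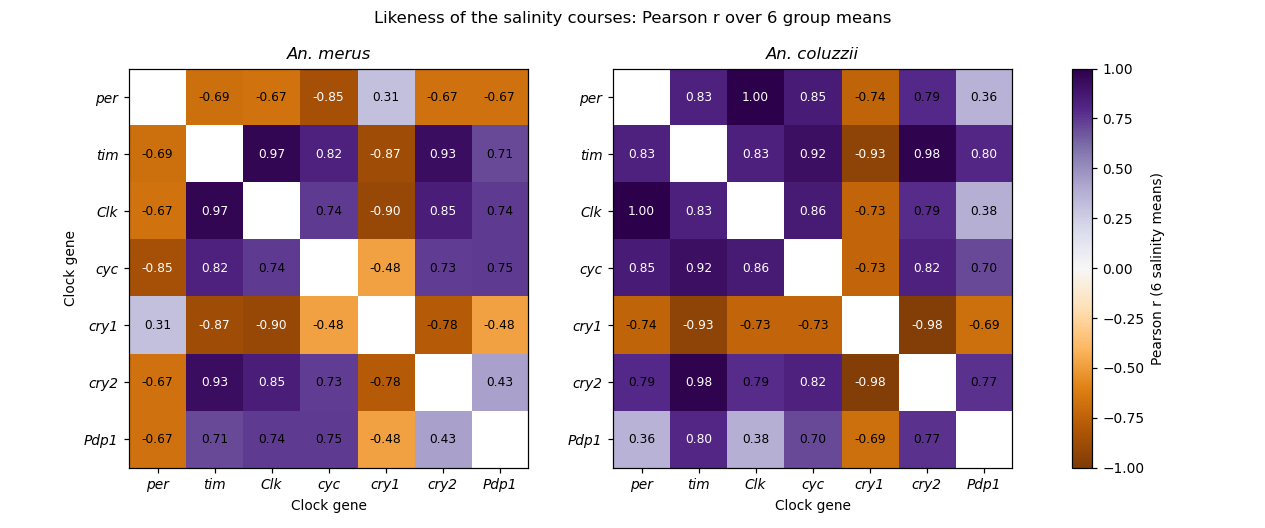
Pearson r between the salinity courses of each pair of clock genes over the 6 salinity means of log2(CPM + 0.5), An. merus at left and An. coluzzii at right; the diagonal is left blank. The row of per differs between the panels, with an r of -0.669 with Clk in An. merus and 0.998 in An. coluzzii, and cry1 is negative with the others in An. coluzzii (-0.980 to -0.685).

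Scaling by library totals in place of TMM shifted the median log2 change over the table. The shift was -0.17, -0.29 and -0.29 for An. coluzzii at 30, 40 and 50%, and -0.13 for An. merus at 50%. Under that scaling 12 of the 98 single-gene results lost their calls. The moderated F tests among the 98 have no direction. Of the other results, 0 changed direction with library totals, and 1 did under quantile normalization (per in An. merus at 50%, 0.02).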

How the data were processed

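Poly(A) RNA libraries of pooled whole larvae were prepared with the TruSeq kit v2, per the labels' protocols. Trimmomatic, Bowtie2, TopHat2, HTSeq and edgeR are named in the submitters' processing notes, without versions; genome build, annotation and strand setting are likewise not given in the sources used here. By the authors, each gene was deposited as a signal in TMM-scaled CPM. All values of the deposited table were whole multiples of 1 read (within 0.001 of a read), so whole reads were recovered. The An. coluzzii 50% replicate C column is named for 1 of 5 lane parts. An. coluzzii replicates are A, B and D at 0% and B, C and D at 40%.

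Values were analysed as log2(CPM + 0.5) with limma 3.58.1 in R 4.3.3. One unpaired model of 12 group means over 36 libraries was fitted to all 10905 genes, with empirical Bayes moderation and a mean trend. Tests were two-sided, adjusted by Benjamini-Hochberg over the whole table per comparison, called under 0.05, and no low-value filter was added. Fold changes are on the log2(CPM + 0.5) scale, which understates changes of low genes. A count of 3 reads corresponds to 0.114 to 0.348 CPM, which covers counting error only. The count alternatives used edgeR 4.0.16 and DESeq2 1.42.0 on the recovered reads. Further alternatives were the pseudocount (0.1 and 2), a filter at a mean of 5 CPM, library totals, quantile normalization, a replicate block, each species alone, and each library left out. The procedure was tested on simulated data.

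The rule for named genes was to name all 7 members, and for each the 1 other gene with a mean of at least 5 CPM and the highest r. The members and lists were chosen with earlier results of these data known. Of the 16199 genes of the reference table, 0 matched identifiers of the deposited table, so other clock pathway genes, sequences and positions were not analysed here.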

Additional observations from a re-analysis of the deposited data

Results flagged for a closer look

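The species' responses to salinity differed by the interaction test (limma adjusted p under 0.05) in 13 cases, each given as the log2 change of An. merus against 0% minus that of An. coluzzii. At 30% the values were -1.08 for per, -0.54 for cyc and 0.77 for Pdp1. At 40% they were -1.52 for per, -0.71 for tim, -1.13 for Clk, 0.69 for cry1 and 0.79 for Pdp1. At 50% they were -0.93 for per, -0.65 for tim, 0.64 for Clk, 0.53 for cry1 and 0.61 for Pdp1. The 3 values of Pdp1, that of Clk at 50% and that of cyc at 30% lost their calls without An. merus 0% replicate A, the library with the fewest reads. The part of its depth in them was not tested. Other single libraries mattered as well. Of 12 fits with 1 library left out, the call was lost in 10 for cyc at 30% and in 6 for Clk at 50%. For Pdp1 it was lost in 8 at 30%, 1 at 40% and 7 at 50%. Both values of tim lost their calls with library totals as the scaling (limma adjusted p = 0.23 and 0.11). No outlier test was run on the groups of 3 libraries, but each library was left out in turn.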

How the results depend on the processing

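Of 98 single-gene results, calls were lost for 12 with library totals, 6 with the replicate block, 5 with edgeR, 4 with DESeq2, 4 with quantile normalization, 2 at a pseudocount of 2, 0 at 0.1 and 1 of 59 with each species alone. Of the 72 results left by the filter at 5 CPM, 0 lost a call. Some of the 98 were uncalled in the main fit and could not lose a call. One value reversed, that of per in An. merus at 50%, uncalled, which was 0.02 with quantile normalization; the cause was not tested. Of 276 counts of clock genes under alternatives, 15 moved by over 1.5 times. The filter, which removes per and cry2, gave 0, 0 and 3 between species at 10, 20 and 30%. Library totals gave 1 in An. coluzzii from 30 to 40%, and quantile normalization 2 between species at 20%. Each species alone gave 1 at 30% in An. merus, and for An. coluzzii 5 from 30 to 40% and 5 from 40 to 50%. Between species at 10%, edgeR and DESeq2 gave 2 and 2, for the interaction at 50% 3 and 3, and DESeq2 gave 5 from 30 to 40% in An. coluzzii. The cause was not tested.

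With the replicate block the count at 30% was 3 between species and 1 in the interaction. The block lost the calls of cyc (-0.36, limma adjusted p = 0.07) and cry2 (0.56, 0.057) between species at 30%, and of cyc at 30% (-0.54, 0.069) and Pdp1 at 30% (0.74, 0.054), 50% (0.57, 0.072) and over all salinities (0.072) in the interaction. The letters were not taken to pair the samples, since the labels do not say what they mark and not every same-letter pair of deviations correlated over 0.1 (24 of 45 in An. merus, from -0.58 to 0.66; 16 of 36 in An. coluzzii, from -0.32 to 0.61). The mean r of same-letter and other-letter pairs was 0.11 and -0.06 in An. merus and 0.09 and -0.03 in An. coluzzii. In An. merus 11 of 18 libraries correlated best with one of their own letter, a hint of pairing from the data and not the design, and in An. coluzzii 4 of 18.

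With 1 library left out, counts ranged from 0 to 1 in An. merus at 10%, 0 to 2 at 20%, 1 to 3 at 30% and 0 to 1 from 30 to 40%. In An. coluzzii they ranged from 0 to 1 at 20% and 1 to 2 from 30 to 40%. Between species they ranged from 0 to 1 at 20% and 3 to 4 at 30%, and for the interaction from 0 to 1 at 20%, 1 to 3 at 30% and 3 to 6 at 50%. Of 1056 such single-gene fits, 106 lost a call. The moderated F tests among them have no direction, and 0 of the other fits reversed. Of the 98 results 77 lost no call, counting those that were uncalled in the main fit. Reads per value limit per, Clk and cry2 most, with as few as 14 for Clk.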
